A study of Mus musculus with 9 samples.

Results

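Expression of 9 genes of the ATF4 stress response was examined in SB28 glioblastoma cells with and without astrocyte mitochondria and in the astrocytes that donated them. The 9 genes are Atf4, Atf5, Ddit3, Trib3, Chac1, Sesn2, Asns, Gdf15 and Ddit4. They were taken as a given list by name, and all 9 were found among the 49315 gene IDs of the count table. All 9 passed the filter on low counts in every comparison. SB28 is a mouse glioblastoma line of C57BL6 background that carried GFP here. The astrocytes were primary neonatal cultures from C57BL6 mito::mKate2 mice, in which a CAG-driven transgene puts the red fluorescent protein mKate2 into mitochondria throughout the body. Both cell types shared a dish for 2 days in DMEM F12 with FBS, N2 supplement, EGF and FGF, received no further treatment, and were then sorted. The 9 libraries were 3 of astrocytes, 3 of SB28 cells without mKate2 signal (mKate2-) and 3 of SB28 cells with it (mKate2+), from 3 distinct co-cultures. Neither SB28 cells nor astrocytes grown alone were analysed here, so every value below comes from cells that had been in co-culture. The astrocytes' sex and the litters behind each culture are not given in the sources used here. Libraries held 24454561 to 39287841 assigned reads.

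Mammalian cells under many kinds of stress phosphorylate the translation initiation factor eIF2α, which lowers general translation but favours translation of the ATF4 mRNA. In mitochondrial stress, the protease OMA1 and its substrate DELE1 relay the signal from the organelle to the eIF2α kinase HRI, while the kinases PERK, GCN2 and PKR answer to unfolded proteins in the endoplasmic reticulum (ER), to amino acid shortage and to double-stranded RNA. ATF4 is a bZIP transcription factor that turns on genes for amino acid uptake and synthesis, tRNA charging and redox balance, with CHOP (Ddit3) and TRIB3 as further branches. Because ATF4 is controlled largely at translation, mRNA levels of Atf4 do not show ATF4 protein, which was not measured in these libraries.

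The response element that ATF4 binds with C/EBP proteins has the core TGATGNAA, where N is any base, and promoters were searched for it because it is the sequence feature that the target genes are known to share. RefSeq windows of 300 bases on GRCm38.p6, from 250 bases before to 50 after each start, were available for all 9 genes. The 9 genes had 11 windows, since some have more than 1 start. The core was found on either strand in 3 of these 11, 1 each of Chac1, Asns and Trib3, and in 3.97% of the 32851 windows of all genes. Stretches of 30 bases around it follow in the direction of each gene, with the match in capitals, and where the match lies on the opposite strand it reads as TTNCATCA. Gars, Tars and Jdp2, from the lists of target and partner genes described further on, are set beside them.
Chac1: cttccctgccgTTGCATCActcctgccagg
Asns: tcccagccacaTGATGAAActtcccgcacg
Trib3: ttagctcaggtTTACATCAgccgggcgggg
Gars: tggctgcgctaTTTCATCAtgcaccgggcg
Tars: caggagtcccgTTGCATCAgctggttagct
Jdp2: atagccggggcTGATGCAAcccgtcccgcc
The Chac1 stretch lies at chr2:119351038-119351067 on the plus strand, with its match 193 bases before the start. That of Asns is at chr6:7693214-7693243 on the minus strand, 23 bases before the RefSeq start and inside the gene as GENCODE M21 draws it. In Trib3, at chr2:152344028-152344057 on the minus strand, the match begins 14 bases after the RefSeq start. The stretches of Gars (chr6:55037960-55037989, plus strand), Tars (chr15:11399655-11399684, minus strand) and Jdp2 (chr12:85599372-85599401, plus strand) hold their matches 30, 15 and 33 bases before the start. The cAMP response element TGACGTCA was found in 0 of the 11 windows and in 1.79% of all windows. Atf4, Atf5, Ddit3, Sesn2, Gdf15 and Ddit4 held neither core in these windows. A match is a run of letters and no evidence of binding.

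Before the genes are described, 2 libraries need mention. The second mKate2+ library stood apart from the other 5 SB28 libraries in a way that followed gene length. Against the mean of the mKate2- libraries, its 384 genes with under 1000 exonic bases deviated by a median of 0.76 on the log2 scale, and its 3783 genes with over 6000 bases by -0.17. The corresponding medians of the other 5 SB28 libraries were -0.09 to 0.13 and -0.03 to 0.02. The third astrocyte library had the highest astrocyte markers, with a summed level of 1504 CPM over 10 markers, against 937 and 891 CPM in the other astrocyte libraries. CPM is the count of a gene per 1000000 assigned reads of its library. Its Aldoc level was 362 CPM against 55.6 and 33.8 CPM, and its Aqp4 level 59.7 CPM against 5.64 and 6.82 CPM.

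The labelled identities were checked with the same markers. Slc1a3, a glutamate transporter of astrocytes, was at 173, 177 and 236 CPM in the astrocytes, at 1.10, 0.947 and 2.38 CPM in mKate2- cells and at 0.832, 0.560 and 1.11 CPM in mKate2+ cells. The summed level of the 10 markers was 130 to 165 CPM in the 6 SB28 libraries, and Sox9 was the most abundant of them in each. Gfap was low even in the astrocytes, at 8.83, 3.42 and 19.4 CPM, and at most 0.268 CPM in SB28 cells. Other cell types were looked for with shorter lists. The microglial markers summed to between 29.0 and 61.3 CPM, and Tmem119 alone was at 24.8 to 61.1 CPM. P2ry12, another microglial gene, was at 1.06, 2.54 and 0.484 CPM in the astrocytes and at most 0.0555 CPM in SB28 cells, and passed as lower in both SB28 groups (edgeR adjusted p = 0.00143 and 0.00225), whereas Tmem119 passed as higher (0.0107 and 0.00886). Cx3cr1 and C1qa were under 0.2 CPM in all 9 libraries. Of the 4 neuronal markers Rbfox3 had a count of 0 in all 9. Tubb3 was at 9.45 to 13.2 CPM in the astrocytes and at 18.2 to 24.8 CPM in SB28 cells. It was higher in both SB28 groups (edgeR adjusted p = 0.00336 and 0.00211). The only other neuronal marker tested went the other way without passing. Its log2 fold changes were -0.44 and -0.98 (edgeR adjusted p = 0.402 and 0.115). The 6 markers of the oligodendrocyte lineage summed to 38.0 to 48.4 CPM in the astrocytes and to 14.5 to 19.5 CPM in SB28 cells, mostly Pdgfra and Cspg4, and Sox10 was under 0.1 CPM throughout. Of the 3 of them that were tested, Cspg4 alone passed, a gene of oligodendrocyte precursors and pericytes. It fell by 2.42 and 2.71 on the log2 scale in the respective SB28 groups (edgeR adjusted p = 4.26e-05 and 0.000262). The other 2 did not pass, with log2 fold changes of -0.71 and 0.13 in mKate2- cells and -0.68 and 0.36 in mKate2+ cells. The 5 endothelial and mural markers summed to 2.41, 1.19 and 9.62 CPM in the astrocytes, highest in the third library, where Cdh5 was at 5.64 CPM, and to at most 1.41 CPM in SB28 cells. Col1a1, a fibroblast marker, was at 325, 324 and 151 CPM in the astrocytes, lowest in the third library, and at 105 to 181 CPM in SB28 cells. Its log2 fold change was -0.69 in mKate2- cells (adjusted p = 0.0628) and -0.95 in mKate2+ cells (adjusted p = 0.036), with a difference of -0.27 between the SB28 groups (adjusted p = 0.923). Lum and Dcn, the other fibroblast markers, were at most 2.45 CPM in any library. The part of other cell types in the differences from astrocytes was not tested.

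The first comparison asked how SB28 cells differed from astrocytes in the response. In mKate2- cells 4 of the 9 genes were higher than in astrocytes (Atf4, Asns, Chac1 and Trib3) and 5 were lower (Atf5, Ddit3, Sesn2, Ddit4 and Gdf15) by edgeR's quasi-likelihood test at a Benjamini-Hochberg adjusted p below 0.05. In mKate2+ cells the same 4 were higher, Ddit3, Sesn2 and Gdf15 were lower, and Atf5 and Ddit4 did not pass. These comparisons share the astrocyte libraries, and they compare cell types, of which most genes differed. Of all 13356 genes tested, 63.1% passed in mKate2- cells against astrocytes, 29.3% higher and 33.8% lower. In mKate2+ cells 60.1% of 13342 genes passed, 28.0% higher and 32.1% lower. A stricter rule also asked for a change of over 2-fold. The methods used this rule with DESeq2 for tumor cells against astrocytes, and it was applied here to the edgeR fits. By it 4 of the 9 genes were higher and 2 were lower (Ddit3 and Gdf15) in each comparison, against 11.5% higher and 22.4% lower of all genes in mKate2- cells (33.9% together) and 12.2% and 22.8% in mKate2+ cells (35.0% together). In bulk libraries of sorted cells, a lower share of cells that use a gene and less RNA of it per cell cannot be told apart.

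**Figure D1:**
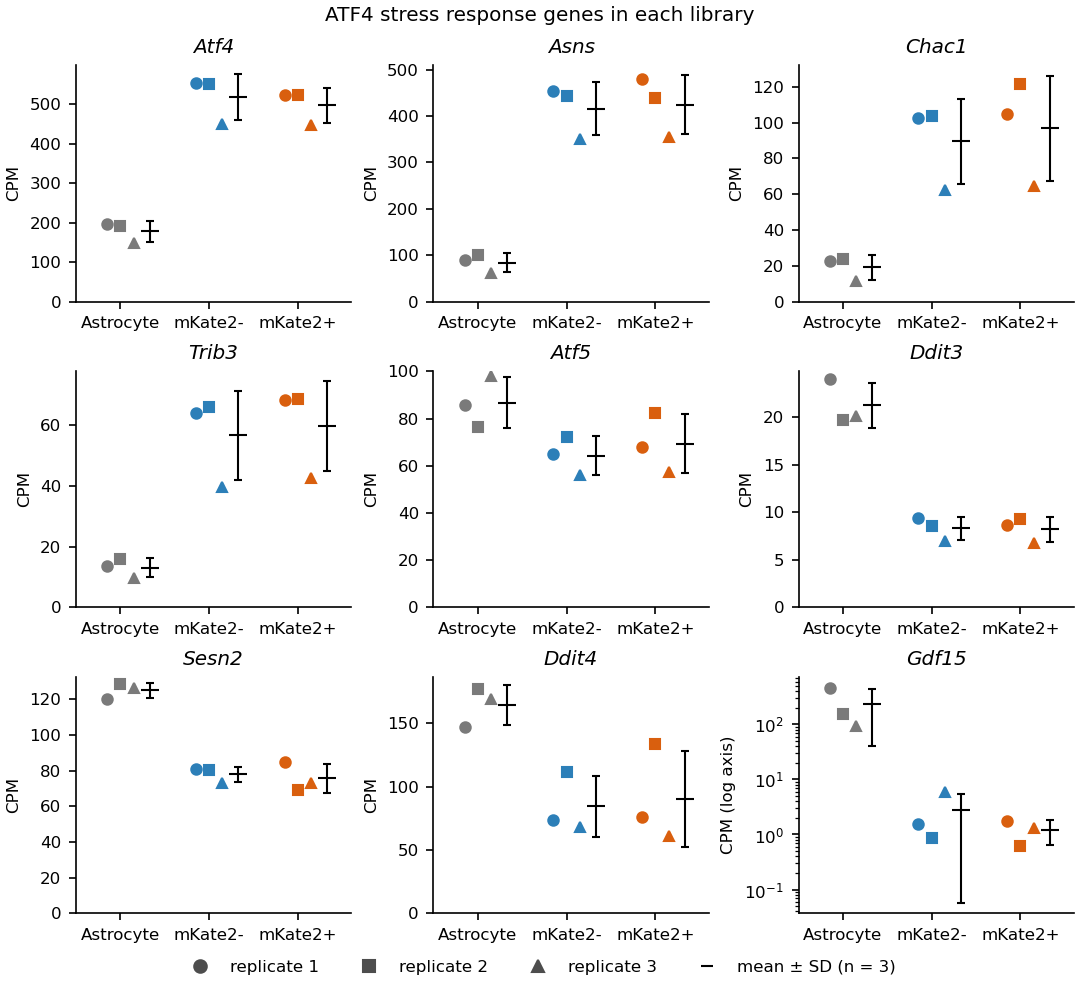
Level of each of the 9 genes in every library, in CPM, with marker shape for the replicate number and bars for mean ± SD of 3 libraries. The axis of Gdf15 is logarithmic and the others start at 0. Atf4, Asns, Chac1 and Trib3 lie higher in all 6 SB28 libraries than in the 3 astrocyte libraries, and Gdf15 lies far lower.

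Atf4 (ENSMUSG00000042406, chr15:80255184-80257541, plus strand of GRCm38) encodes the central transcription factor. It stood at 197, 191 and 148 CPM in the astrocytes, at 553, 552 and 450 CPM in mKate2- cells and at 522, 523 and 447 CPM in mKate2+ cells. Every SB28 library was above every astrocyte library, and the 2 SB28 groups overlapped. The log2 fold change against astrocytes was 1.55 (SE 0.158, edgeR adjusted p = 0.000119) in mKate2- cells and 1.55 (SE 0.163, adjusted p = 0.000184) in mKate2+ cells.

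Asns (ENSMUSG00000029752, chr6:7675169-7693254, minus strand), which makes asparagine from aspartate and is a standard readout of ATF4 activity, followed the same pattern. Its levels were 90.5, 99.9 and 62.2 CPM in the astrocytes, 455, 443 and 351 CPM in mKate2- cells and 479, 440 and 354 CPM in mKate2+ cells. Again no SB28 library reached down to the astrocytes. The log2 fold changes were 2.32 (SE 0.205, edgeR adjusted p = 6.25e-05) and 2.41 (SE 0.219, adjusted p = 9.76e-05). Asns had the smallest adjusted p of the 9 genes in both comparisons.

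Trib3 (ENSMUSG00000032715, chr2:152337422-152344032, minus strand) is a pseudokinase that ATF4 and CHOP induce and that feeds back on both. It was measured at 13.5, 15.9 and 9.65 CPM in the astrocytes, at 64.1, 66.1 and 39.8 CPM in mKate2- cells and at 68.2, 68.5 and 42.8 CPM in mKate2+ cells. The lowest SB28 library thus exceeded the highest astrocyte library. In the fit, Trib3 was higher by 2.14 (SE 0.260, edgeR adjusted p = 0.000272) and 2.28 (SE 0.268, adjusted p = 0.000301) on the log2 scale.

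Chac1 (ENSMUSG00000027313, chr2:119351229-119354381, plus strand) encodes an enzyme that degrades glutathione. The astrocyte libraries gave 22.6, 23.8 and 11.3 CPM, the mKate2- libraries 102, 104 and 62.3 CPM and the mKate2+ libraries 105, 122 and 64.5 CPM. The groups of SB28 cells and astrocytes did not overlap. Differences from astrocytes were 2.23 (SE 0.326, edgeR adjusted p = 0.000662) and 2.42 (SE 0.356, adjusted p = 0.000867) on the log2 scale.

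Ddit3 (ENSMUSG00000025408, chr10:127290774-127296288, plus strand) encodes CHOP, the bZIP factor of the branch toward cell death. Unlike Atf4 it was lower in SB28 cells. It was at 24.0, 19.7 and 20.1 CPM in the astrocytes, at 9.38, 8.58 and 7.0 CPM in mKate2- cells and at 8.68, 9.27 and 6.73 CPM in mKate2+ cells. All 6 SB28 libraries were below all 3 astrocyte libraries. The log2 fold changes were -1.34 (SE 0.178, edgeR adjusted p = 0.00042) and -1.29 (SE 0.20, adjusted p = 0.00109). Ddit3 shares 68 exonic bases with Mars (Mars1) on the opposite strand, and whether counting used strand is not given in the sources used here.

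Atf5 (ENSMUSG00000038539, chr7:44812256-44816658, minus strand) is a relative of Atf4 that is translated under the same control and is tied to the mitochondrial unfolded protein response. Its astrocyte levels were 85.8, 76.5 and 98.0 CPM. The mKate2- libraries gave 64.8, 72.1 and 56.0 CPM, all below the astrocytes, and the mKate2+ libraries 68.0, 82.4 and 57.5 CPM, which overlapped them. The log2 fold change was -0.42 (SE 0.138, edgeR adjusted p = 0.0301) in mKate2- cells and -0.24 (SE 0.180, adjusted p = 0.274) in mKate2+ cells. In mKate2+ cells it was -0.42 without mKate2+ replicate 2 (adjusted p = 0.0546), the library that stood apart by gene length, and -0.11 without mKate2+ replicate 3 (adjusted p = 0.649). The difference between the SB28 groups was not past the test, as given below for mKate2+ against mKate2- cells. The call in mKate2- cells was lost in 8 of 13 alternatives, with adjusted p from 0.0503 to 0.122, including without astrocyte replicate 1 or 3 and without mKate2- replicate 1 or 3. Atf5 shares 82 exonic bases with Nup62 and with Il4i1 on the opposite strand.

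Sesn2 (ENSMUSG00000028893, chr4:132492032-132510501, minus strand) encodes a leucine sensor that restrains mTORC1. It was at 120, 129 and 126 CPM in the astrocytes, at 80.8, 80.2 and 72.9 CPM in mKate2- cells and at 85.0, 69.2 and 72.9 CPM in mKate2+ cells. No SB28 library reached the astrocyte levels. The change was small but even, at -0.67 (SE 0.0933, edgeR adjusted p = 0.00053) and -0.65 (SE 0.111, adjusted p = 0.00177) on the log2 scale.

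Ddit4 (ENSMUSG00000020108, chr10:59949669-59951834, minus strand) encodes REDD1, another brake on mTORC1 that also answers to hypoxia and glucocorticoids. The astrocytes stood at 147, 177 and 169 CPM, mKate2- cells at 73.6, 112 and 67.8 CPM and mKate2+ cells at 75.9, 133 and 61.3 CPM. The second library was the highest in every group, yet no SB28 library overlapped the astrocytes. The log2 fold change was -0.94 (SE 0.194, edgeR adjusted p = 0.00367) in mKate2- cells. In mKate2+ cells it was -0.77 (SE 0.294, adjusted p = 0.0525), which did not pass. Without mKate2+ replicate 2, the library that stood apart by gene length, it was -1.21 with an adjusted p of 0.00109, and 8 of 13 alternatives in all passed the threshold.

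Gdf15 (ENSMUSG00000038508, chr8:70629393-70632456, minus strand) encodes a secreted stress hormone that ATF4 and CHOP induce in many tissues and that acts on the hindbrain receptor GFRAL. It differed most from astrocytes of the 9 genes. The astrocyte libraries held 462, 155 and 95.3 CPM, a spread of mean ± SD of 237 ± 196 CPM (n = 3). In mKate2- cells it was at 1.58, 0.864 and 5.90 CPM, from 43, 31 and 176 reads, and in mKate2+ cells at 1.78, 0.611 and 1.29 CPM, from 64, 24 and 44 reads. Thus the lowest astrocyte library was far above the highest SB28 library. Gdf15 was 86.4-fold lower in mKate2- cells (log2 fold change -6.43, SE 0.919, edgeR adjusted p = 0.000594) and 187-fold lower in mKate2+ cells (-7.55, SE 0.777, adjusted p = 0.000169). These sizes rested partly on single libraries. Without astrocyte replicate 1 they were -5.49 and -6.61, and without mKate2- replicate 3 the first was -7.61. Gfral, its receptor, had a count of 0 in all 9 libraries, and Ret, the co-receptor, a count of 0 in all 6 SB28 libraries and 0, 0.0306 and 1.28 CPM in the astrocytes.

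**Figure D2:**
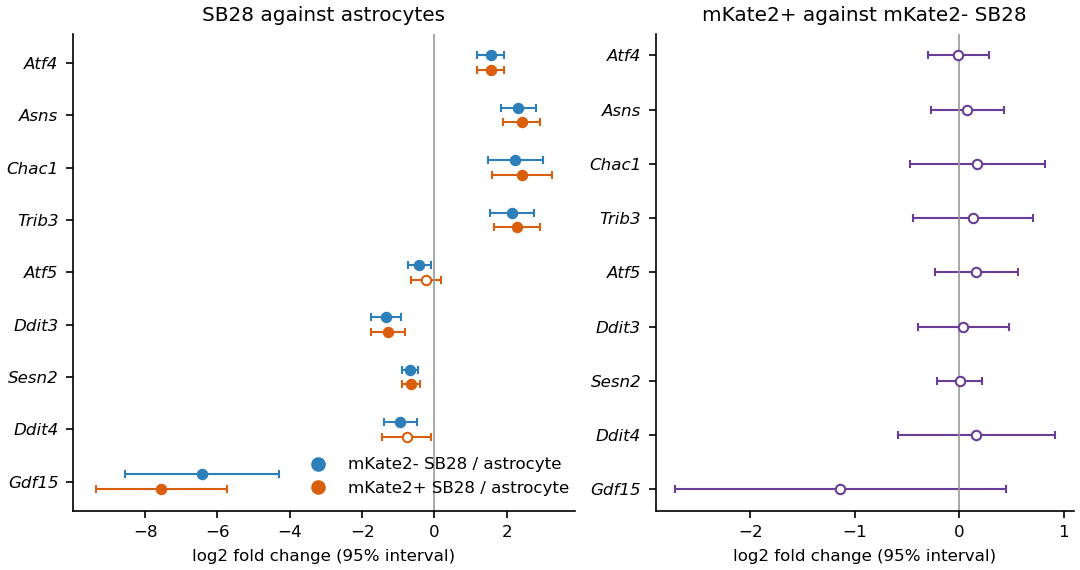
Log2 fold changes of the 9 genes with 95% intervals from edgeR, for both SB28 groups against astrocytes (left) and for mKate2+ against mKate2- SB28 cells (right). Filled points have an adjusted p below 0.05 and open points do not. On the left 4 genes lie above 0, while on the right the intervals of all 9 genes include 0. The 2 panels have different scales.

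The median log2 fold change of the 9 genes was -0.42 in mKate2- cells and -0.24 in mKate2+ cells against astrocytes, beside -0.04 and -0.02 over all genes tested. Both medians are the value of Atf5, so that of mKate2+ cells was likewise -0.42 without mKate2+ replicate 2 and -0.11 without mKate2+ replicate 3. Levels of the 2 cell types did not overlap for 9 of the 9 genes in mKate2- cells and for 8 in mKate2+ cells, where Atf5 was the exception. Of all genes tested, 71.1% and 67.1% did not overlap.

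The next question was whether cells that held astrocyte mitochondria differed from those that did not. For none of the 9 genes did mKate2+ cells differ from mKate2- cells past the test. By edgeR, 0 of the 9 passed at an adjusted p below 0.05, 0 at an unadjusted p below 0.05 and 0 by the thresholds the methods set for higher genes, applied here in either direction (a fold change above 1.5, an unadjusted p below 0.05 and a mean normalized count above 50). DESeq2 also called 0 of the 9 at an adjusted p below 0.05. Of all 11854 genes 0, or 0%, passed at the adjusted threshold by either tool, 2.03% had an unadjusted p below 0.05, and 0.363% met those thresholds, 23 genes higher and 20 lower. None of the 9 genes had groups that did not overlap, against 8.83% of all genes.

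The intervals of these differences say how large a change the libraries could have hidden. The tightest was that of Sesn2, with a log2 fold change of 0.01 and a 95% interval of -0.21 to 0.22. Atf4 gave -0.01 (-0.30 to 0.29) and Asns 0.08 (-0.27 to 0.43). Ddit3 gave 0.04 (-0.40 to 0.48) and Atf5 0.17 (-0.23 to 0.56). For these 5 genes a 1.5-fold change in either direction lay outside the interval. The next were less precise, with 0.13 (-0.44 to 0.71) for Trib3, 0.18 (-0.47 to 0.82) for Chac1 and 0.17 (-0.59 to 0.92) for Ddit4. All 8 had edgeR adjusted p between 0.923 and 0.995. The median over the 9 genes was 0.08, beside 0.00 over all genes tested. Without mKate2+ replicate 2 the value of Ddit4 was -0.30.

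Gdf15 had the widest interval, with a log2 fold change of -1.14 in mKate2+ against mKate2- cells (SE 0.688, 95% interval -2.73 to 0.45, edgeR adjusted p = 0.923). This size came from 1 library, since it was 0.04 without mKate2- replicate 3, the library with 5.90 CPM. In the same library Slc1a3 was at 2.38 CPM, above the other 5 SB28 libraries. Of the 10 astrocyte markers, 4 (Slc1a3, Gfap, Aqp4 and Apoe) were highest in this library among the 3 of mKate2- cells and 5 were lowest, with Slc1a2 at a count of 0. Their summed level there was 139 CPM, against 130 and 165 CPM, and Sox9 at 90.4 CPM was the most abundant. The part of astrocyte RNA in this Gdf15 value was not tested.

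Levels of different genes were compared per kilobase of merged exons. In mKate2- cells Atf4 was the most abundant of the 9, at 220 ± 25.1 CPM per kilobase (SD, n = 3), followed by Asns at 152 ± 20.9. Chac1 (54.7 ± 14.4) and Ddit4 (48.1 ± 13.6) came next and overlapped each other. Below them Atf5 (32.3 ± 4.05), Trib3 (26.7 ± 6.89) and Sesn2 (22.4 ± 1.26) each overlapped its neighbour, and Ddit3 (4.86 ± 0.706) and Gdf15 (1.5 ± 1.47) stood clear at the bottom. The order was the same in mKate2+ cells, from Atf4 at 211 ± 18.6 to Gdf15 at 0.661 ± 0.316, with neighbours from Chac1 to Sesn2 overlapping. Astrocytes had another order. There Gdf15 had the highest mean, 128 ± 106 CPM per kilobase, which rested on replicate 1. Its libraries were at 249, 83.7 and 51.5, a range that overlapped both Ddit4 at 93.6 ± 8.97 and Atf4 at 75.8 ± 11.2. Without replicate 1 the mean of Gdf15 was 67.6, below Ddit4 at 98.6 and Atf4 at 71.9. Atf5 (43.5 ± 5.40) followed, then Sesn2 (36.0 ± 1.23) and Asns (30.8 ± 7.18), whose ranges overlapped. Ddit3 (12.4 ± 1.38), Chac1 (11.8 ± 4.23) and Trib3 (6.13 ± 1.48) were lowest, each overlapping the next.

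**Figure D3:**
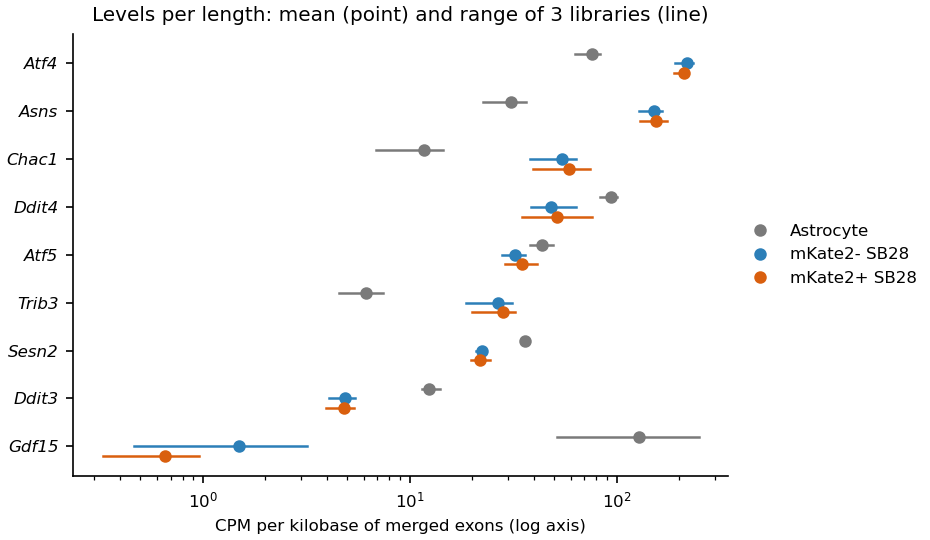
Level of the 9 genes per kilobase of merged exons in each group, on a logarithmic axis, with points for the mean and lines for the range of 3 libraries. Atf4 and Asns lead in both SB28 groups, and Gdf15 has the highest mean and the widest range in astrocytes and the lowest mean in SB28 cells.

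The spread among replicates also differed between the genes. The SD was at its smallest relative to the mean for Sesn2 in astrocytes (3.4%) and in mKate2- cells (5.6%) and for Atf4 in mKate2+ cells (8.8%). It was at its largest for Gdf15 in all 3 groups, at 82.8% in astrocytes, 97.9% in mKate2- cells and 47.8% in mKate2+ cells.

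A shared pattern in this spread was noticed after the values were seen. Atf4, Asns, Trib3 and Chac1 were each lowest in replicate 3 of all 3 groups. Of all 13450 genes above 1 CPM in at least 2 libraries, 617 (4.59%) had that pattern, and 0 of the 9 genes were lowest in replicate 1, or in replicate 2, of all 3 groups (2.68% and 5.55% of all genes). Among the lists of related genes, replicate 3 was lowest in all 3 groups for 7 of 13 genes of amino acid synthesis and one-carbon metabolism. These were Aldh18a1, Got1, Mthfd2, Psat1, Psph, Pycr1 and Shmt2. Replicate 3 was likewise lowest for 3 of 9 transporters, 3 of 13 tRNA charging genes, 3 of 10 other stress and secreted targets and 2 of 14 bZIP genes. It was so for 0 of 6 paralogs, 0 of 18 eIF2α kinases and relays, 0 of 16 ER stress genes and 0 of 12 mitochondrial chaperones and proteases. The labels do not say whether a number marks the same co-culture in each group.

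**Figure D4:**
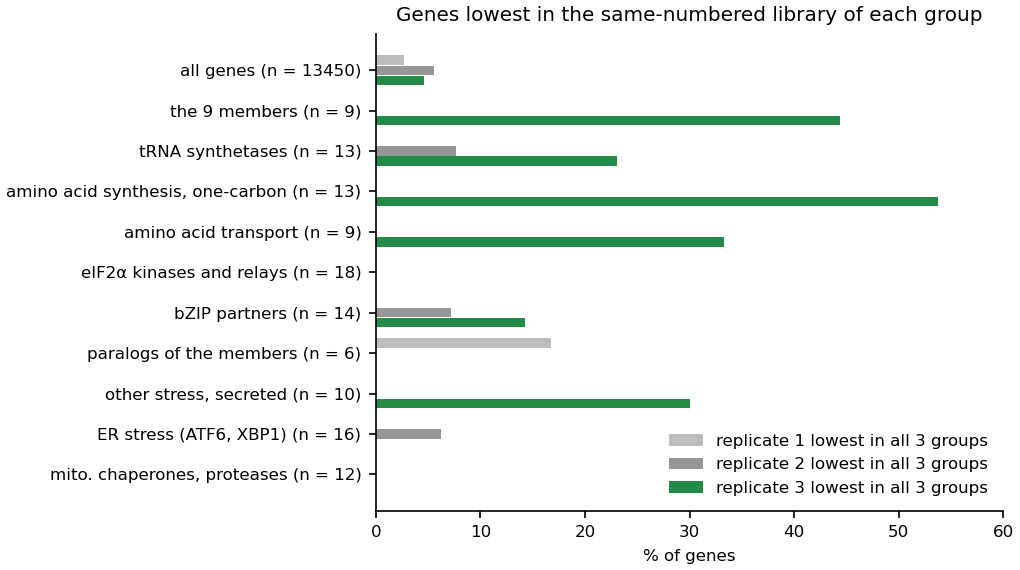
Percent of genes whose lowest CPM fell in the same-numbered library of all 3 groups, for replicates 1, 2 and 3, over all genes and over each list. The bar for replicate 3 is 44.4% for the 9 genes and 4.59% for all genes.

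Genes with the most similar pattern over the 9 libraries were found by Pearson correlation of log2 CPM among 13450 genes. These correlations mostly reflect the split of 6 SB28 from 3 astrocyte libraries and are given as a description. Atf4 and Asns were each other's closest gene (r = 0.9975), and Asns was followed by Mthfd2, a mitochondrial one-carbon enzyme. Trib3 and Chac1 were each within the closest 3 of the other (r = 0.9941), behind Sap30 in Trib3. Ddit4 was closest to Nupr1 (r = 0.9828), a stress cofactor. Gdf15 was closest to Ngfr, Rprm and Nptx2, and Ddit3 to Nat14, Klc3 and Ankrd13d. Atf5 had the loosest match, with H2-D1 (r = 0.945), a class I histocompatibility gene.

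Upstream of ATF4, 11 of 18 genes for eIF2α kinases, phosphatases and relays were higher in each SB28 group than in astrocytes, while 3 were lower in mKate2- cells and 2 in mKate2+ cells. Medians of the list on the log2 scale were 0.49 and 0.51. Among all genes tested, 29.3% and 28.0% were higher, and 33.8% and 32.1% lower, in the respective comparisons. The relay from mitochondria was uneven. Oma1, the protease, was at 17.2, 17.7 and 15.7 CPM in the astrocytes, 41.7, 36.7 and 39.1 CPM in mKate2- cells and 45.8, 40.7 and 39.9 CPM in mKate2+ cells. It rose by 1.23 and 1.40 on the log2 scale (edgeR adjusted p = 0.000111 and 0.000124). Dele1 gave 0.29 and 0.36 (adjusted p = 0.0656 and 0.0487), so it passed in mKate2+ cells alone, and the difference between the SB28 groups was 0.05 (adjusted p = 0.943). The HRI gene Eif2ak1 gave -0.33 and -0.32 (adjusted p = 0.0376 and 0.0754). It shares 487 exonic bases with Aimp2 on the opposite strand.

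Among the other kinases, Eif2ak3 (PERK) was lower, at -0.51 and -0.53 (edgeR adjusted p = 0.00488 and 0.0201). Eif2ak4 (GCN2) gave 0.54 and 0.42 (adjusted p = 0.0278 and 0.126), and Eif2ak2 (PKR) 0.17 and -0.01, which did not pass. The GCN2 partner Gcn1 did not pass either, and its inhibitor Impact was higher by 0.59 and 0.51. The substrate subunit Eif2s1, eIF2α itself, was higher by 1.14 in both SB28 groups, as were its partners Eif2s2 (1.11 and 1.10) and Eif2s3x (0.56 and 0.59). Of the 5 subunits of eIF2B, the exchange factor that phosphorylated eIF2α blocks, Eif2b1, Eif2b2, Eif2b4 and Eif2b5 were higher by 0.41 to 0.76 and Eif2b3 did not pass. The regulatory subunits of the eIF2α phosphatase moved in opposite directions. Ppp1r15a (GADD34), which ATF4 induces, was lower by 0.69 and 0.67 on the log2 scale in the respective groups, at 24.1 to 29.9 CPM in the astrocytes and 14.8 to 17.0 CPM in SB28 cells. Ppp1r15b (CReP), the constitutive subunit, was higher by 1.45 and 1.43. The count of higher genes in this list fell to 7 in mKate2- cells without replicate 1 or 3 of those cells, and to 6 in mKate2+ cells without mKate2+ replicate 3.

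Downstream, the target genes of amino acid metabolism were higher almost throughout. All 13 genes of the list of cytosolic tRNA charging were higher in both SB28 groups, with a median of 1.26 in each, beside 29.3% and 28.0% of all genes that were higher. Tars rose by 1.5 and 1.53, Gars, the most abundant per kilobase, by 1.68 and 1.73, and Mars1 by 1.26 and 1.29. Of the 13 genes of amino acid synthesis and one-carbon metabolism 12 were higher and 1 was lower in each comparison, with medians of 1.76 and 1.79. Phgdh, the first enzyme of serine synthesis, rose by 1.76 and 1.80, and its mitochondrial successors Shmt2 and Mthfd1l rose by 1.91 and 2.03 and by 1.72 and 1.79. Psat1, also of serine synthesis, was the most abundant at 267 ± 11.6 CPM per kilobase in mKate2+ cells (SD, n = 3). Cbs, of transsulfuration, fell by 4.29 and 4.42, and its astrocyte levels of 15.4, 9.17 and 98.4 CPM were uneven, highest in the library with the highest astrocyte markers.

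Of the 9 amino acid transporters tested out of 11, 6 were higher and 0 lower in each SB28 group, beside 29.3% and 28.0% of all genes that were higher. Slc7a1, for cationic amino acids, rose by 2.00 and 2.10, the glutamine transporter Slc1a5 by 1.92 in both, and the leucine transporter Slc7a5 by 1.71 and 1.86. Slc7a3 and Slc43a1 did not pass the filter on low counts.

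Of 14 bZIP partners and relatives of ATF4 tested out of 15, 5 were higher and 6 lower in mKate2- cells and 4 higher and 6 lower in mKate2+ cells. These counts lay near the shares of all genes (29.3% higher and 33.8% lower, and 28.0% and 32.1%). The repressor Jdp2 rose by 1.62 and 1.69, Atf6 by 1.29 and 1.18 and Atf1 by 0.85 and 0.84. The C/EBP factors Cebpa and Cebpd fell by 6.06 and 7.06 and by 3.45 and 3.52, and Nfe2l1 fell by 0.89 and 0.91. Cebpd shares 562 exonic bases with Spidr on the opposite strand. The lower genes in mKate2+ cells numbered 4 without astrocyte replicate 2 and 8 without astrocyte replicate 1.

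Of 6 paralogs of the 9 genes, 2 were higher, 3 were lower and 1 did not pass in each SB28 group. Of all genes 29.3% and 28.0% were higher and 33.8% and 32.1% lower. The paralogs that passed moved in the direction of their relatives among the 9. Trib1, a relative of Trib3, rose by 1.40 and 1.41, and Chac2, a relative of Chac1, by 1.30 and 1.26, whereas Trib2 did not pass. Sesn1 and Sesn3 fell with Sesn2, by 0.90 and 0.96 and by 1.51 and 1.53. Ddit4l, a relative of Ddit4, fell by 6.57 and 6.91, from 83.4, 105 and 66.1 CPM in the astrocytes to at most 1.47 CPM in SB28 cells.

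Of 10 other stress and secreted targets tested out of 12, mKate2- cells had 4 higher and 5 lower, and mKate2+ cells 3 higher and 5 lower. Of all genes 29.3% and 28.0% were higher and 33.8% and 32.1% lower. The secreted glycoprotein gene Stc2 rose by 1.57 and 1.69, the ER quality control gene Herpud1 by 0.72 and 0.85 and the translation repressor Eif4ebp1 by 1.19 and 1.68. The BH3-only death genes Pmaip1 (NOXA) and Bbc3 (PUMA), which p53 also controls, fell by 1.85 and 1.80 and by 1.95 and 1.56. Vegfa fell by 1.04 and 1.15. Fgf21, the other hormone of mitochondrial stress, was under 1 CPM in all 9 libraries and was not tested.

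**Figure D5:**
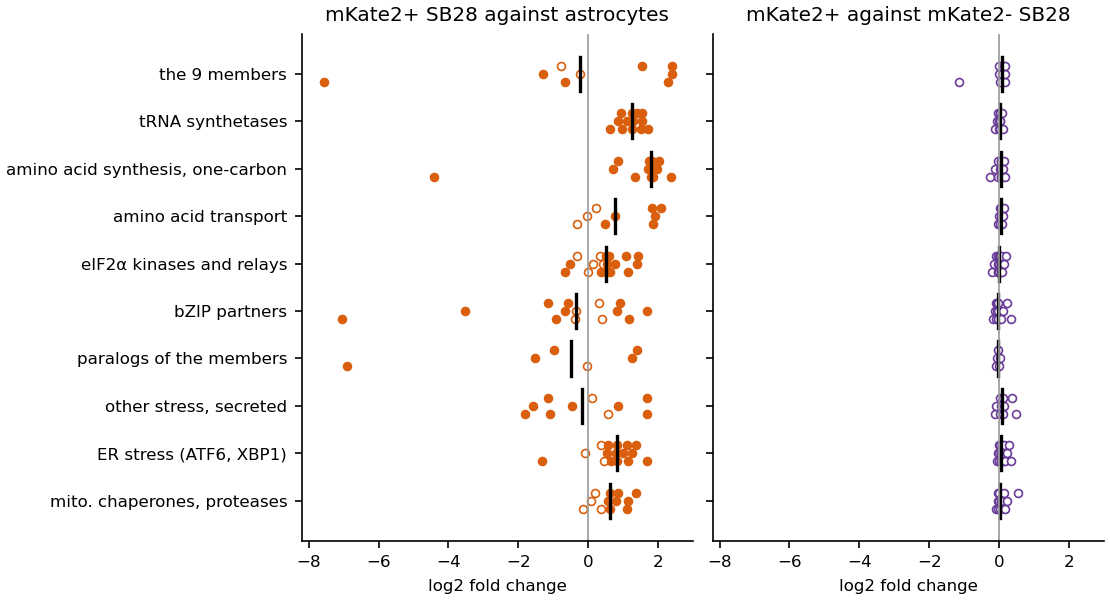
Log2 fold change of every gene tested in the 9-gene list and in 9 lists of related genes, for mKate2+ SB28 cells against astrocytes (left) and against mKate2- SB28 cells (right). Filled points have an edgeR adjusted p below 0.05, open points do not, and the black line is the median of the list. The tRNA charging list lies wholly above 0 on the left, and on the right no point is filled.

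Neighbouring stress responses that ATF4 does not govern alone were counted beside these. The ER list of the ATF6 and XBP1 arms held 13 higher genes and 1 lower gene of 16 in mKate2- cells, and 12 higher and 1 lower in mKate2+ cells, with medians of 0.69 and 0.82, beside 29.3% and 28.0% of all genes that were higher. Edem1 rose by 1.32 and 1.38, Sdf2l1 by 1.33 and 1.68 and Pdia6 by 1.14 and 1.26, Calr was the most abundant per kilobase, and the co-chaperone Dnajb9 fell by 1.35 and 1.33. Without mKate2- replicate 3 the count of higher genes in mKate2- cells was 9. Of 12 mitochondrial chaperones and proteases 8 were higher and 0 lower in each comparison, with medians of 0.61 and 0.63, against the same shares of all genes. Hspd1, the matrix chaperonin, rose by 1.12 and 1.14, the intermembrane protease Htra2 by 0.95 and 1.11 and Afg3l2 by 0.73 and 0.80. Lonp1 and Clpp, the matrix proteases most often tied to the mitochondrial unfolded protein response, did not pass. Htra2 shares 753 exonic bases with Aup1 and 535 with Loxl3 on the opposite strand.

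Between mKate2+ and mKate2- cells, 0 genes of any of these lists passed at an adjusted p below 0.05 by edgeR or, over all genes, by DESeq2. At an unadjusted p below 0.05 in edgeR's fit across all genes there were 2, against 2.03% of all genes. They were 1 of 16 ER stress genes, Sdf2l1 (log2 fold change 0.35, unadjusted p = 0.0466), and 1 of 12 mitochondrial chaperones and proteases, Clpp (0.24, unadjusted p = 0.0423). Each other list had 0. Sdf2l1 and Clpp were named for their p after their values were seen.

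The core TGATGNAA was found in 5 of the 9 promoter windows of the tRNA charging genes (Aars, Gars, Iars, Tars and Yars), in 2 of 10 of the transporters, in 2 of 12 of amino acid synthesis and in 3 of 14 of the other stress targets. It was in 3 of 19 windows of the bZIP genes (Atf3, Jdp2 and Nupr1) and in 1 of 15 of the kinases and relays (Eif2s3x), beside 3.97% of all windows. It was in 0 of 6 windows of the paralogs, 0 of 14 of the ER stress genes and 0 of 10 of the mitochondrial chaperones and proteases. Not every gene of these lists had a window. Windows were available for 9 of 13 tRNA charging genes, 7 of 11 transporters and 11 of 13 genes of amino acid synthesis. The other stress targets had them for 10 of 12 genes, the bZIP genes for 13 of 15 and the kinases and relays for 14 of 18. For paralogs, ER stress genes and mitochondrial genes the numbers were 5 of 6, 14 of 16 and 9 of 12. Genes without a window were not searched. Genes with a match were found on both sides, since Nupr1 fell by 1.37 and 1.13 while Gars and Jdp2 rose, and Atf3, at 1.91 to 3.82 CPM in all libraries, did not pass. The 3 of the 9 genes with a match, Chac1, Asns and Trib3, were all higher in SB28 cells than in astrocytes, and so was Atf4, which had none.

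Immediate-early genes, which respond within minutes to handling and mitogens, were counted as a sign of cell handling. The 6 genes summed to 777, 925 and 905 CPM in the astrocytes, to 441, 718 and 520 CPM in mKate2- cells and to 435, 580 and 485 CPM in mKate2+ cells, with Jun the most abundant in all but the third astrocyte library. Their sum was highest in replicate 2 of every group, the same libraries in which Ddit4 was highest. Of the 6 genes, 1 passed as lower than in astrocytes in mKate2- cells and 3 in mKate2+ cells (edgeR adjusted p below 0.05). Of all genes 33.8% and 32.1% were lower. By the 2-fold rule 0 and 2 of the 6 were lower, and between the SB28 groups 0 passed. The part of these genes in the differences from astrocytes was not tested.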

How the data were processed

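The authors trimmed reads with Trimmomatic 0.36, mapped them to GRCm38 with STAR 2.5.2b and counted them per gene with featureCounts (Subread 1.5.2), per the submitters' processing notes. The deposited values are raw counts with no normalization, in 1 column per library, and 0 per-sample columns were left unused. The sort gates in the series' text give the CellTrace Violet stain to the tumor cells, whereas the methods stain astrocytes, so libraries were taken by their names. Names, positions and exon lengths came from GENCODE M21, which names 49056 of 49315 gene IDs.

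CPM was each count over the library's total. Each comparison used its 6 libraries, genes above 1 CPM in at least 2 of them, TMM normalization and edgeR 4.0.16's quasi-likelihood test (R 4.3.3) with Benjamini-Hochberg adjustment over all genes tested. Standard errors were taken from the F statistic, and 95% intervals from its degrees of freedom. Replicates within a group differed by more than counting noise in every pair. Correlations used log2 CPM with a prior count of 2. The genes most similar to Sesn2 are not reported here. Fits were tested on simulated data. All 9 genes are named throughout. From each related list the text names up to 3 genes per direction with the smallest adjusted p in mKate2+ cells against astrocytes and the most abundant per length, and from the kinases and relays all genes. Genes outside this rule are named as members of a count or after their values were seen. The members and lists were chosen with earlier results of these data known. Alternatives were DESeq2 1.42.0, upper-quartile scaling, no filter, a minimum of 10 counts in every library, all 9 libraries in 1 fit, the replicate number as a block, removal of a gene length trend (loess, span 0.3) and each library left out in turn.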

Additional observations from a re-analysis of the deposited data

How the results depend on the processing

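The 4 higher genes (Atf4, Asns, Chac1 and Trib3) and 3 of the lower ones (Ddit3, Sesn2 and Gdf15) kept their direction and their call against astrocytes under all 13 alternatives in both SB28 groups, and so did Ddit4 in mKate2- cells. The calls of Atf5 in mKate2- cells and the missed call of Ddit4 in mKate2+ cells did not hold, as given above. Members called numbered 8 or 9 in mKate2- cells and 7 or 8 in mKate2+ cells against astrocytes, while 34.5% to 66.4% and 33.1% to 66.7% of all genes tested were called, the lowest shares without a filter. Scaling moved the median log2 fold change of all genes to -0.12 at most with upper-quartile factors, and without a filter to -0.21.

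Between mKate2+ and mKate2- cells 0 members passed the adjusted threshold under any alternative, and directions there were not stable. Sesn2 was at -0.00219 with upper-quartile scaling and -0.0131 with the gene length trend removed, Ddit3 at -0.0736 with that trend removed and Atf4 at 0.00253 without a filter. With 1 library left out, the ranges were -0.106 to 0.0693 for Atf4, -0.0348 to 0.288 for Atf5, -0.108 to 0.168 for Ddit3, -0.0732 to 0.325 for Trib3, -0.0813 to 0.398 for Chac1, -0.0607 to 0.0368 for Sesn2, -0.0365 to 0.196 for Asns, -1.57 to 0.04 for Gdf15 and -0.30 to 0.42 for Ddit4. By the thresholds on fold, unadjusted p and mean count, in either direction, 43 of all genes passed (23 higher), 83 with DESeq2 (62 higher), 259 without a filter (224 higher), and 22 to 380 with 1 library left out, the lowest without mKate2+ replicate 2, the highest without mKate2+ replicate 1, and 269 without mKate2+ replicate 3. Members by these thresholds were 1 (Gdf15) without a filter and 0 to 1 with 1 library left out, the 1 again Gdf15, without mKate2- replicate 2. The causes were not tested.

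Deviations of same-numbered libraries correlated at 0.02 to 0.05 (mKate2- against astrocytes) and -0.14 to 0.25 (mKate2+ against astrocytes). For mKate2+ against mKate2- cells they correlated at -0.002 to 0.17. Libraries of different number gave -0.09 to 0.06, -0.27 to 0.25 and -0.17 to 0.08 in the same order of comparisons. These values do not settle whether same-numbered libraries shared a co-culture. The labels do not say so either, and the numbers were not taken as pairs. With the replicate number as a block, 8, 8 and 0 members were called in the 3 comparisons, Atf5 being lost in mKate2- cells (adjusted p = 0.0533) and Ddit4 gained in mKate2+ cells (0.0133), and it changed no other member's call. Gdf15 had the fewest reads of the 9 genes in each SB28 library, 24 to 176.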
